A study of Mus musculus with 12 samples.

Results

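The transcripts of 3 cytokine genes, Il4, Il13 and Il6, were followed through basophil development in sorted, unstimulated mouse cells. They were chosen by name as the type 2 cytokines IL-4 and IL-13 together with IL-6, and they are 3 of the 32227 genes in the count table. All 3 were among the 15083 genes with enough reads to be tested. The 12 libraries fell into 4 groups of 3, all from C57BL/6J wild-type mice that had received no stimulus. Basophil progenitors (BaPs) were CD200R3+ cKit- CLEC12A-high CD34+ bone marrow (BM) cells. Pre-basophils, titled immature basophils in the labels, were CD34- CLEC12A-high CD9-low BM cells, and mature basophils were CD34- CLEC12A-low CD9-high cells sorted from the BM or from the spleen. No age is stated for the mice in these sources. Cells of several animals were pooled for each library, and p-values therefore measure the spread between such pools.

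Basophils circulate in small numbers with IgE bound to their surface, and secrete histamine and cytokines when antigen binds that IgE. They are a well-known source of IL-4, which drives IgE class switching in B cells and the type 2 programme in T cells. IL-13 shares a receptor chain with IL-4 and acts mainly on epithelium, smooth muscle and macrophages, whereas IL-6 is a pleiotropic cytokine that signals through gp130 and STAT3. Resting basophils are known to hold cytokine mRNA before they are stimulated, and mRNAs of this kind often carry AU-rich elements in their 3' untranslated region (UTR) that bind decay factors.

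Il4 and Il13 lie next to each other on mouse chromosome 11, both on the minus strand (GRCm38). Il4 (ENSMUSG00000000869.12) spans chr11:53602982-53618669, and Il13 (ENSMUSG00000020383.1) spans chr11:53631324-53634702. Their annotated start sites are 16033 bases apart. The start site of Il13 lies 14817 bases from the 3' end of Rad50, a DNA repair gene whose last introns are known to hold control elements of this locus. Il6 (ENSMUSG00000025746.11) lies on the plus strand of chromosome 5, at chr5:30013114-30019981. The transcripts used here have 4 exons for Il4, 4 for Il13 and 5 for Il6.

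The 250 bases before each RefSeq start site are shown because they hold different short motifs in the 3 genes. They are printed 5' to 3' on the strand of the gene, with the matches to 5 motifs in capitals. Those motifs are TATAAA (a form of the TATA box), GATAA (bound by GATA factors) and TGANTCA (bound by AP-1). The others are TTGNNCAA (bound by C/EBP factors) and the NF-kB motif. The NF-kB motif is matched here by GGGATTTTCC and was allowed any base at 2 inner positions. Each of the 5 was searched on both strands. The windows are chr11:53618666-53618915 for Il4, chr11:53634703-53634952 for Il13 and chr5:30012864-30013113 for Il6 (RefSeq, GRCm38.p6).
Il4: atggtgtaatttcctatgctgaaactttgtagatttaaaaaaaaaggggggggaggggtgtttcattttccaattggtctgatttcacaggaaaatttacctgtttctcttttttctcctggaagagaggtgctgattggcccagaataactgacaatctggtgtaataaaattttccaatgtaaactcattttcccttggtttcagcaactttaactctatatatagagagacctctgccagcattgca
Il13: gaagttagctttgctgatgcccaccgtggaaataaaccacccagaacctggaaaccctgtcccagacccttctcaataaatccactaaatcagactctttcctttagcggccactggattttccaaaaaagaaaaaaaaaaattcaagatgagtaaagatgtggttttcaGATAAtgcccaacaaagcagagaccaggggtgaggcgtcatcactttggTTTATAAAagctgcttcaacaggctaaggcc
Il6: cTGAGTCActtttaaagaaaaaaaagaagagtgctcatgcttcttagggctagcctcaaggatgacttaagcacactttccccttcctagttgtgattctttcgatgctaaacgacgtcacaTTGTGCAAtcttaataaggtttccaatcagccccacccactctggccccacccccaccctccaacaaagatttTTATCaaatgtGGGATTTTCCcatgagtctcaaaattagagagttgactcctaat

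The Il6 window held a match to the AP-1 motif at 249 to 243 bases before the start, to the C/EBP motif at 128 to 121, to GATAA on the opposite strand at 55 to 51, and to the NF-kB motif at 44 to 35. The Il13 window held GATAA at 80 to 76 bases before the start and TATAAA at 29 to 24, where it overlapped a match on the opposite strand. None of the 5 motifs was found in the Il4 window as written. Other forms of the TATA box were not searched, and that window holds the stretch tatatata. A match was present in 12.4% of all 32817 promoter windows of the same length for TATAAA, in 22.6% for GATAA, in 6.75% for TGANTCA, in 5.65% for TTGNNCAA and in 1.41% for the NF-kB motif. The core of NFAT sites, GGAAA, occurred 5 times in the Il4 window, 4 times in that of Il13 and 3 times in that of Il6, where 1 match overlapped the NF-kB motif, and 55.6% of all windows held at least 1. These matches describe letters in the windows, and no binding was measured.

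AU-rich stretches of the 3' UTRs of Il13 and Il6 are shown because both hold the pentamer ATTTA, the core of AU-rich elements. A window of 30 bases was taken from each annotated transcript (GENCODE M21, GRCm38), at chr11:53631733-53631762 for Il13 and chr5:30019677-30019706 for Il6, with the pentamers in capitals.
Il13: atcttATTTAttatggttgtgtgttATTTA
Il6: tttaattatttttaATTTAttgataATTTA

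The 3' UTR of Il13 was 741 bases long with 3 pentamers, and that of Il6 was 427 bases long with 6. Among other 3' UTRs trimmed to the same length, 0.292% held as many pentamers as Il6 and 16.9% as many as Il13. The pentamers were thus dense in Il6 and closer to the usual density in Il13.

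The libraries held 3596108 to 8151030 counts, and no pair within a group agreed within sampling noise. Levels are given as CPM, counts scaled to a common library total, with TMM (trimmed mean of M values) factors, and the limit that a count of 0 allows, 3 counts in a library, was 0.289 to 0.950 CPM. The summed level of the basophil markers on a fixed list was 25260 CPM in BaP replicate 3, against 62751 and 68124 CPM in the other BaP libraries. The same library had 179 CPM of summed T cell markers against 8.21 and 12.1, 203 CPM of summed monocyte or macrophage markers against 19.0 and 21.3, and 3.53% mitochondrial counts, against 1.0% to 1.82% in the 11 other libraries. It also held 787 of the 789 Ifng counts of the BaP group. Summed eosinophil markers reached 143 CPM in it against 59.4 and 39.2, and mast cell markers 37.2 CPM against 12.4 and 8.21. Markers of group 2 innate lymphoid cells summed to 93.8 CPM against 34.2 and 41.3, but were higher still in the 6 mature libraries, at 149 CPM or more. The part of these other cells in the cytokine values was not tested, and each comparison of the 3 transcripts with BaPs is therefore also given without BaP replicate 3. Neutrophil markers varied as well, and the sum of the 5 on the list was 91.5, 587 and 1701 CPM in the BaP libraries and 276, 715 and 1647 CPM in pre-basophils, against 31.6 to 57.0 CPM in the 6 mature libraries. In bulk samples, fewer cells that hold a transcript and less of it in each cell cannot be told apart.

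Il6 was the most abundant of the 3 transcripts in every library, followed by Il4 and then Il13. By mean CPM among the 15083 genes tested, the rank of Il6 was 63 for BaPs, 28 for pre-basophils, 49 for mature basophils of the BM and 208 for those of the spleen. It took between 0.0498% and 0.370% of the counts of a library. Per kilobase of transcript, the mean level of Il6 was 1178, 2792, 2062 and 513 CPM along the order BaP, pre-basophil, BM mature and spleen mature. This scale assumes that counts grow with transcript length, which was not tested. On the same scale, Il4 stood at 82.8, 159, 204 and 199, and Il13 at 5.13, 19.4, 14.1 and 8.0. Ranked by mean CPM and not per kilobase, Il4 belonged to the more abundant transcripts of mature basophils, at rank 1192 in the BM and 1197 in the spleen. Il13 had rank 6105 and rank 8134.

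**Figure D1:**
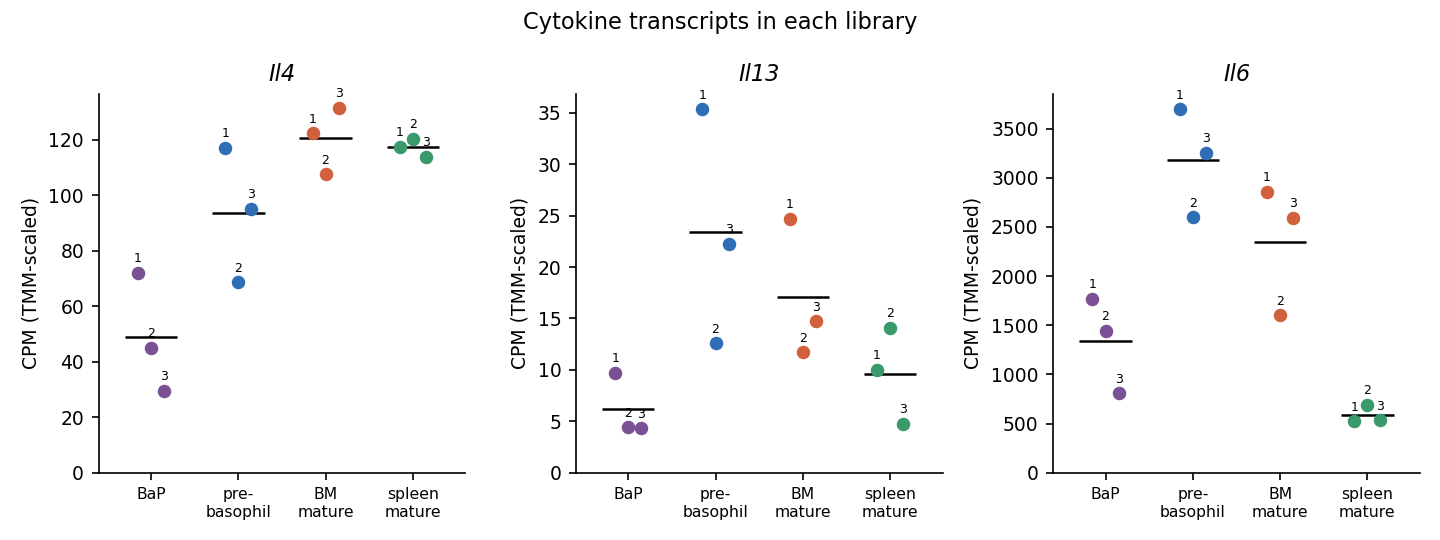
Levels of Il4, Il13 and Il6 in TMM-scaled CPM (y axes, linear, from 0) in the 12 libraries by group (x axes). Points are libraries with their replicate number and bars are group means. BaPs hold the lowest mean of Il4 and Il13, whereas spleen mature basophils, between 525 and 694 CPM, hold the lowest Il6.

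Il4 was lowest in BaPs and highest in mature basophils, where the tissues differed by less than the spread between replicates. It was measured at 72.0, 45.0 and 29.6 CPM in BaP replicates 1 to 3, and at 117, 68.5 and 95.1 CPM in pre-basophils. The values were 122, 108 and 131 CPM for mature basophils of the BM, and 117, 120 and 114 CPM for those of the spleen. BaP libraries all lay below every mature library, whereas BaPs overlapped pre-basophils and pre-basophils overlapped both mature groups. Group means were 48.9 ± 21.5 CPM (SD, n = 3) for BaPs, 93.6 ± 24.3 for pre-basophils, 120 ± 12.1 for the mature BM group and 117 ± 3.30 for the spleen.

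Il13 was low throughout and highest in the bone marrow groups after the BaP stage. Its counts ran from 19 to 140 in a library, so that counting error weighs more on it than on the others. BaPs held 9.75, 4.46 and 4.34 CPM, pre-basophils 35.3, 12.6 and 22.3 CPM, BM mature basophils 24.7, 11.7 and 14.7 CPM and spleen mature basophils 10.03, 14.1 and 4.76 CPM. BaPs did not overlap pre-basophils or BM mature basophils, and the other pairs overlapped. The means were 6.18 ± 3.09 CPM (SD, n = 3), 23.4 ± 11.4, 17.0 ± 6.80 and 9.63 ± 4.69 in the same order. The biological coefficient of variation of Il13 was 36.9%, above that of 94.2% of the genes tested, against 22.1% for Il4, 23.2% for Il6 and a median of 18.0%.

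Il6 was highest in pre-basophils and lowest in spleen mature basophils. BaPs held 1772, 1446 and 812 CPM and pre-basophils 3699, 2600 and 3256 CPM. BM mature basophils held 2858, 1606 and 2593 CPM, and spleen mature basophils 525, 694 and 536 CPM. Every spleen library lay below every bone marrow library, BaPs included, and every BaP library lay below every pre-basophil library. Pre-basophils overlapped BM mature basophils, and BM mature basophils overlapped BaPs. Group means were 1344 ± 488 CPM (SD, n = 3) for BaPs, 3185 ± 553 for pre-basophils, 2352 ± 660 for the mature BM group and 585 ± 94.3 for the spleen.

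All 3 transcripts differed among the 4 groups in the quasi-likelihood F test of edgeR, in a fit where 57.8% of the genes tested did so. The adjusted p (Benjamini-Hochberg, over all genes tested) was 0.00242 for Il4, 0.00962 for Il13 and 2.96e-05 for Il6, and without BaP replicate 3 it was 0.000837, 0.00761 and 2.55e-08. The threshold throughout was an adjusted p of 0.05. The pairs of groups below share libraries, so that their results are not independent of each other.

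All 3 transcripts were lower in BaPs than in pre-basophils, a comparison in which 7.09% of the genes tested were called, 2.8% higher and 4.29% lower in BaPs. The log2 fold change was -0.95 (SE 0.26, adjusted p = 0.0397, edgeR) for Il4, -1.96 (SE 0.46, adjusted p = 0.0235) for Il13 and -1.25 (SE 0.26, adjusted p = 0.0140) for Il6. Leaving out BaP replicate 3 gave -0.67, -1.70 and -0.98, with adjusted p in edgeR of 0.0352, 0.0258 and 0.00438. The call for Il4 was lost without BaP replicate 2 (adjusted p = 0.0803), pre-basophil replicate 1 (0.171) or pre-basophil replicate 3 (0.119), and narrowly without any 1 of the 6 mature libraries (0.0553 to 0.0608) or with the scaling scheme of the study's package (0.0624). For Il13 the adjusted p was 0.0514 without BaP replicate 2, 0.108 without pre-basophil replicate 1 and 0.0712 without pre-basophil replicate 3. For Il6 it was 0.0685 without pre-basophil replicate 1 and 0.0525 without pre-basophil replicate 3.

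None of the 3 passed the test between pre-basophils and BM mature basophils, where 27.2% of the genes tested were called, 16.3% higher and 11% lower in pre-basophils. The log2 fold change was -0.37 (adjusted p = 0.309, edgeR) for Il4, 0.47 (0.459) for Il13 and 0.44 (0.241) for Il6, with SEs of 0.25, 0.43 and 0.26. The unadjusted p was 0.167, 0.299 and 0.117, and neither DESeq2 nor limma-voom called any of the 3. Scaled by library size alone, Il6 passed the test (adjusted p = 0.0306). All 5 neutrophil markers were higher in pre-basophils in this comparison. Their part in it was not tested, either here or for the gene lists below.

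Il6 alone of the 3 passed the test between the mature basophils of the spleen and the BM, where 7.83% of the genes tested were called, 3.16% higher and 4.67% lower in the spleen. Its log2 fold change was -2.01 (SE 0.27, adjusted p = 0.00220, edgeR), a level 4.02-fold lower in the spleen, and it held the 24th smallest p of all genes tested. Il4 had a log2 fold change of -0.04 (SE 0.25, adjusted p = 0.945) and Il13 of -0.82 (SE 0.45, adjusted p = 0.278). The BM and the spleen differed by tissue, and 3 of 4 listed B cell markers were higher in the spleen. All 4 together summed to 71.6 to 124 CPM there, against 18.0 to 22.9 CPM in BM mature basophils. Their part in the difference was not tested.

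BaPs against BM mature basophils gave lower levels of all 3 transcripts in BaPs, in a comparison with 45% of the genes tested called, 25.3% higher and 19.6% lower. The log2 fold change was -1.32 (adjusted p = 0.000906, edgeR) for Il4, -1.49 (0.0192) for Il13 and -0.81 (0.0221) for Il6. Without BaP replicate 3 these were -1.03 (adjusted p = 0.000303), -1.22 (0.0439) and -0.54 (0.0324). The call for Il13 was lost without BaP replicate 2 (0.0596) or BM mature replicate 1 (0.0941), and that for Il6 without BM mature replicate 1 (0.102) or BM mature replicate 3 (0.0705). Scaled by library size alone, neither Il13 (0.0612) nor Il6 (0.133) passed, and with the study's scaling scheme Il6 did not (0.0558). All 5 neutrophil markers were higher in BaPs in this comparison, and their part in it was not tested.

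Against the spleen, the directions parted. BaPs held less Il4 than spleen mature basophils (log2 fold change -1.28, adjusted p = 0.000810, edgeR) but more Il6 (1.2, adjusted p = 0.00172), in a comparison with 54.4% of the genes tested called, 29.8% higher and 24.6% lower in BaPs. Il13 was not called (-0.68, adjusted p = 0.239). Without BaP replicate 3 the log2 fold change was -0.99 for Il4, -0.41 for Il13 and 1.47 for Il6. Pre-basophils held 5.44-fold more Il6 than spleen mature basophils (log2 fold change 2.44, adjusted p = 1.37e-05, edgeR) and 2.43-fold more Il13 (1.28, adjusted p = 0.0278), with 45.7% of the genes tested called, 25.2% higher and 20.6% lower. Il4 was not called there (-0.33, adjusted p = 0.300). The adjusted p of Il13 was 0.150 without pre-basophil replicate 1, 0.0558 without pre-basophil replicate 3, 0.0635 without spleen mature replicate 1 and 0.116 without spleen mature replicate 3. In both comparisons with the spleen, all 5 neutrophil markers were lower and 3 of 4 B cell markers were higher in the spleen, and their part was not tested.

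**Figure D2:**
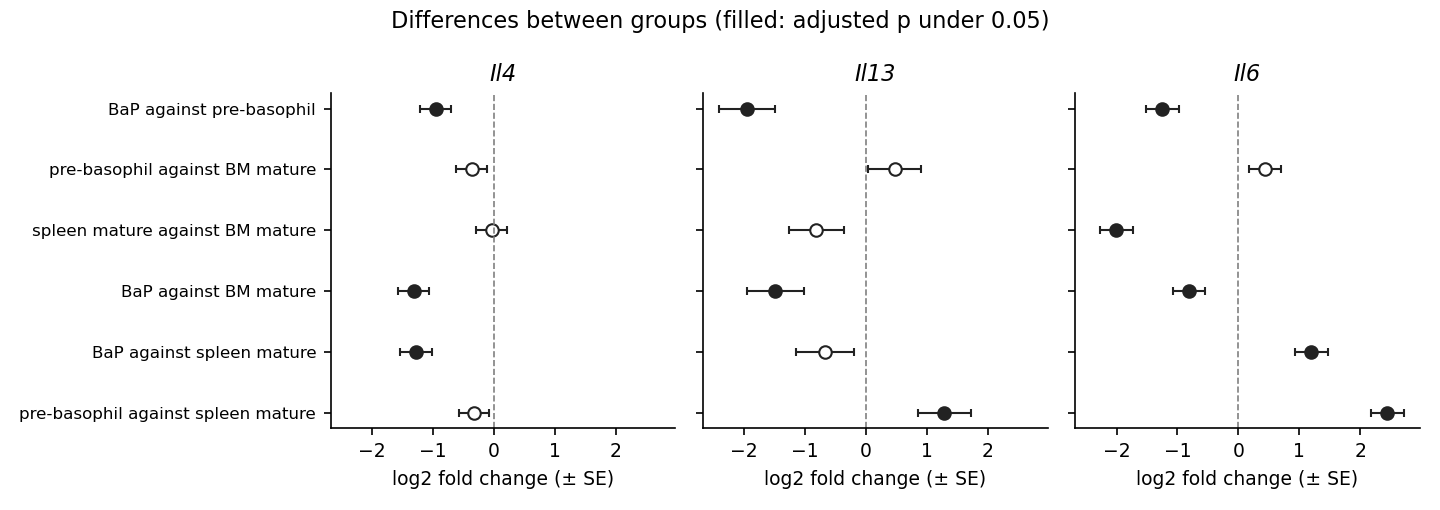
Log2 fold change of Il4, Il13 and Il6 (x axes) in the 6 pairs of groups (y axis), with the first group of each pair set against the second. Points are estimates of the quasi-likelihood fit with their SE, filled where the adjusted p was under 0.05. Il6 in the spleen lies at -2.01 against the BM, and Il4 at -0.04.

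The balance between the cytokines also differed between the groups, in ratios taken within each library, where scaling has no effect. The count of Il6 was 24.6, 32.0 and 27.4 times that of Il4 in BaPs and 31.6, 37.9 and 34.2 times in pre-basophils. It was 23.4, 14.9 and 19.7 times in BM mature and 4.47, 5.76 and 4.71 times in spleen mature basophils. No spleen library overlapped any bone marrow library, and BM mature basophils lay below pre-basophils in every library. The mean log2 ratio was 4.80 ± 0.19 (SD, n = 3), 5.11 ± 0.13, 4.25 ± 0.33 and 2.31 ± 0.19 in the 4 groups, and an exact two-sided permutation test over the 4 groups gave p = 0.00013, where the smallest p possible is 6.49e-05. Per length of transcript, the level of Il6 was on average 17.9 times that of Il4 in pre-basophils and 2.58 times in spleen mature basophils. These values hold only if counts grow with transcript length, which was not tested.

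Il13 against Il4 was highest in pre-basophils. The count of Il4 was 7.31, 9.87 and 6.76 times that of Il13 in BaPs, 3.31, 5.4 and 4.26 times in pre-basophils, 4.92, 9.11 and 8.89 times in BM mature and 11.6, 8.48 and 23.6 times in spleen mature basophils. Pre-basophils and BM mature basophils overlapped. The mean log2 ratio of Il13 to Il4 was -2.98 ± 0.29 (SD, n = 3), -2.08 ± 0.35, -2.88 ± 0.50 and -3.73 ± 0.76, and the exact permutation test gave p = 0.0121. That p was 0.0611 without pre-basophil replicate 1 and 0.0512 without spleen mature replicate 3. The 2 ratios were the only ones tested and share Il4, and the Benjamini-Hochberg adjusted p of the exact permutation tests was 0.00026 for Il6 to Il4 and 0.0121 for Il13 to Il4. Without BaP replicate 3 the unadjusted exact permutation p was 0.00039 and 0.0245.

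**Figure D3:**
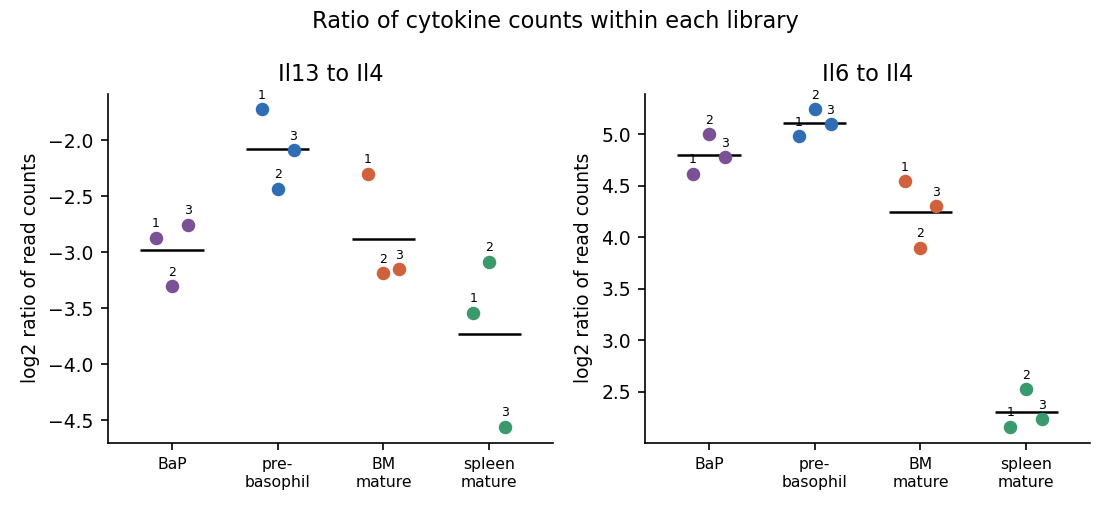
Log2 ratio of Il13 to Il4 and of Il6 to Il4 counts within each library (y axes) by group (x axes). Points are libraries with their replicate number and bars are group means. The Il6 to Il4 ratio in spleen mature basophils, at a mean of 2.31, lies below all 9 bone marrow libraries.

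The neighbours of Il4 and Il13 on chromosome 11 did not move as 1 block. Among 8 listed neighbours with counts, 6 were tested, and 1 was lower in BaPs than in pre-basophils, beside 4.29% of all genes tested, with a median log2 fold change of -0.35 beside 0.02 over all genes tested. Leaving out BaP replicate 3, 2 were lower and 1 higher, beside 6.46% and 5.97% of all genes. Kif3a, a kinesin subunit on the far side of Il4, was the gene called, at 18.1 ± 4.68 CPM (SD, n = 3) in BaPs and 30.9 ± 6.23 CPM in pre-basophils (log2 fold change -0.79, adjusted p = 0.0289, edgeR, or 0.0459 without BaP replicate 3). Rad50 was not called in that comparison (0.45, adjusted p = 0.129) but was higher in BaPs without BaP replicate 3 (0.62, adjusted p = 0.0160). Septin8, a cytoskeletal septin, was higher in pre-basophils than in BM mature basophils (0.63, adjusted p = 0.0293) and lower in the spleen than in the BM (-0.81, adjusted p = 0.0289). Irf1, an interferon-induced transcription factor, was lower in pre-basophils (98.8 ± 15.4 CPM) than in BM mature basophils (184 ± 29.4 CPM, adjusted p = 0.00592, edgeR). Il5, the other type 2 cytokine of the locus, had 10 counts in all over the BaP libraries, 13 over pre-basophils, 9 over the mature BM group and 21 over the spleen group, too few to be tested.

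Among 11 tested genes on a list of other cytokines, 3 were lower in BaPs than in pre-basophils, beside 4.29% of all genes tested, with a median log2 fold change of -0.82 beside 0.02. The count without BaP replicate 3 was again 3, beside 6.46% of all genes, and the median -0.65. Csf1, the macrophage growth factor, was the most abundant of them, at 898 ± 182, 1952 ± 347, 3944 ± 983 and 4170 ± 584 CPM (SD, n = 3) along the order BaP, pre-basophil, BM mature and spleen mature. Osm, a cytokine that shares gp130 with IL-6, rose from 593 ± 100.7 CPM in BaPs to 1365 ± 139 in pre-basophils (adjusted p = 0.00178, edgeR) and to 3992 ± 153 in mature basophils of the BM (adjusted p = 4.12e-05). Both therefore stood higher in mature basophils than in pre-basophils, where Il6 did not pass the test.

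Tnf and Il1b, both inflammatory cytokines, were the 2 genes of that list called between the mature groups, and both were lower in the spleen, as Il6 was. Of all genes tested, 4.67% were lower there. With BaP replicate 3 left out, 5 of the list were lower, beside 10% of all genes. Tnf stood at 163 ± 59.4, 308 ± 17.2, 153 ± 13.9 and 36.1 ± 7.54 CPM (SD, n = 3) in that order of groups, with a log2 fold change of -2.08 (adjusted p = 0.000773, edgeR) between spleen and BM. Il1b stood at 35.3 ± 13.9, 62.0 ± 22.6, 44.4 ± 24.7 and 8.18 ± 3.21 CPM in the same order, with a log2 fold change of -2.41 (adjusted p = 0.00929). The median of the 11 genes in that comparison was -0.43, beside 0.01 over all genes tested.

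**Figure D4:**
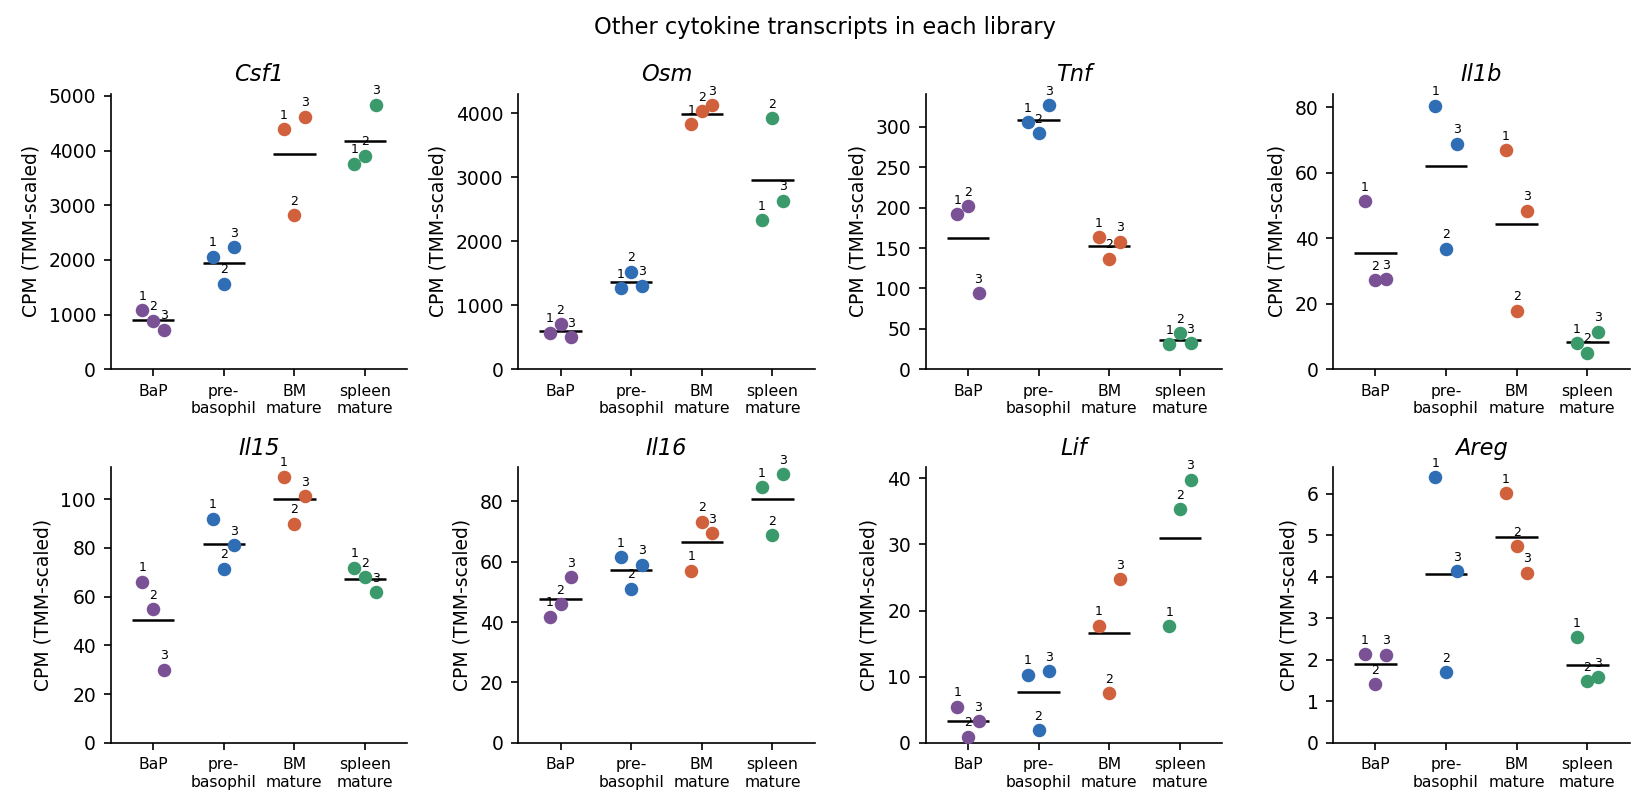
Levels of 8 of the 11 other cytokine transcripts tested, in TMM-scaled CPM (y axes, linear, from 0) in the 12 libraries by group (x axes). Points are libraries with their replicate number and bars are group means. Csf1 and Osm are highest in the mature groups, whereas Tnf and Il1b are lowest in spleen mature basophils, at means of 36.1 and 8.18 CPM.

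Receptors and signalling genes for the 3 cytokines were lower in pre-basophils than in BM mature basophils for 6 of 13 tested, and none was higher, where 11% of all genes tested were lower. Jak1, a kinase used by all 3 receptors, stood at 301 ± 14.2 CPM (SD, n = 3) before and 491 ± 12.8 CPM after this step (log2 fold change -0.71, adjusted p = 0.00274, edgeR). Jak2, a kinase of the IL-3 and gp130 receptors, had the smallest p of the list, with 98.2 ± 2.06 CPM in BaPs, 165 ± 29.1 in pre-basophils, 301 ± 49.6 in the mature BM group and 537 ± 23.7 in the spleen, and each neighbouring pair passed the test (adjusted p = 0.00784, 0.000549 and 0.00584). Stat6, which carries the IL-4 and IL-13 signal, had 52.4 ± 9.04 and 95.4 ± 13.7 CPM (-0.87, adjusted p = 0.000774). Il6ra, the ligand-binding chain for IL-6, was low, at 2.14 ± 1.07 and 6.03 ± 0.70 CPM (-1.49, adjusted p = 0.0222).

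Of 20 tested transcription factors linked to Il4 and Il13, 1 was lower and 1 higher in BaPs than in pre-basophils, beside 4.29% and 2.8% of all genes tested. The number lower was 4 without BaP replicate 3, beside 6.46% of all genes. Gata2, which basophils need for their identity, was measured at 1213 ± 399 CPM (SD, n = 3) in BaPs, 1890 ± 38.1 in pre-basophils, 2250 ± 229 for the mature BM group and 1846 ± 199 for the spleen, and did not pass the test between BaPs and pre-basophils (adjusted p = 0.0663, edgeR), pre-basophils and BM mature basophils (0.378) or the mature groups (0.399). When BaP replicate 3 was left out, it was lower in BaPs than in pre-basophils (log2 fold change -0.38, adjusted p = 0.0332). Stat5b, which acts downstream of IL-3, was higher in BM mature basophils (91.0 ± 6.03 CPM) than in pre-basophils (63.6 ± 2.48 CPM, adjusted p = 0.00809, edgeR). Nfatc3, an NFAT factor, was also higher in BM mature basophils (129 ± 2.85 against 92.8 ± 8.58 CPM, adjusted p = 0.00487), whereas Ets1 was higher in pre-basophils (497 ± 31.0 against 346 ± 22.8 CPM, adjusted p = 0.00250). Mitf, known from mast cells, was the gene higher in BaPs than in pre-basophils, at 3.46 ± 0.75 against 0.98 ± 0.71 CPM (adjusted p = 0.0413). Its pre-basophil mean lay near the limit of 3 counts, which was 0.477 to 0.834 CPM in those libraries, so the call rests on few reads.

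Of 11 transcription factors linked to Il6, 1 was lower in BaPs than in pre-basophils, beside 4.29% of all genes tested, and 2 were without BaP replicate 3, beside 6.46%. The gene lower in BaPs was Nfkbiz, an atypical IkB protein that acts on Il6, at 1290 ± 288 CPM (SD, n = 3) against 2417 ± 116 CPM in pre-basophils (adjusted p = 0.00537, edgeR). It rose again to 5512 ± 367 CPM in BM mature basophils (adjusted p = 0.000138) and stood at 5289 ± 768 CPM in the spleen. Nfkb1 and Rela, both NF-kB subunits, had group means of 65.5 to 118 CPM and 44.5 to 69.2 CPM, and Klf4, a Kruppel-like factor, of 12.9 to 51.0 CPM. Nfkb1 did not pass the test between BaPs and pre-basophils (adjusted p = 0.0657), and was lower in BaPs without BaP replicate 3 (0.00263).

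Decay factors that act on AU-rich or stem-loop elements were called in 5 of 14 tested between pre-basophils and BM mature basophils, 4 lower and 1 higher in pre-basophils. Of all genes tested 27.2% were called there in either direction, a share not far from that of the list. By direction, 11% of all genes were lower and 16.3% higher in pre-basophils. When BaP replicate 3 was left out, 8 were lower, beside 15.8% of all genes. Zfp36, whose protein tristetraprolin binds AU-rich elements, stood at 2025 ± 271 CPM (SD, n = 3) in BaPs, 4478 ± 398 in pre-basophils, 15282 ± 1613 for the mature BM group and 17219 ± 995 for the spleen. The step from pre-basophils to BM mature basophils passed the test (log2 fold change -1.77, adjusted p = 2.07e-06, edgeR), and spleen against BM did not (0.17, adjusted p = 0.462). Khsrp, another protein that binds AU-rich elements, was the gene higher in pre-basophils (49.2 ± 6.71 against 27.1 ± 3.02 CPM, adjusted p = 0.000349), and Rc3h1, which encodes Roquin-1, was lower (60.7 ± 2.06 against 78.7 ± 6.82 CPM, adjusted p = 0.0389). Zc3h12a, which encodes the Il6-cleaving nuclease Regnase-1, was lower in the spleen, at 220 ± 29.2 CPM, than in the BM, at 339 ± 36.3 CPM (-0.62, adjusted p = 0.0278).

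Immediate-early genes respond within minutes to stimulation and to cell handling. Of 17 tested, 10 were lower and 1 was higher in BaPs than in pre-basophils, beside 4.29% and 2.8% of all genes tested (11 lower without BaP replicate 3, beside 6.46%). Against BM mature basophils, 9 were lower in pre-basophils, beside 11% of all genes. Between the mature groups 3 were higher and 2 lower in the spleen, beside 3.16% and 4.67%, and 6 were higher without BaP replicate 3, beside 8.0%. Nr4a1, Nr4a3 and Atf3 did not pass the test over the 4 groups (adjusted p = 0.335, 0.533 and 0.221, edgeR) and were named after their values were seen. The summed level of all 17 genes of the list was 21233 to 29495 CPM in BaPs and 41990 to 47303 in pre-basophils. It was 83892 to 101607 CPM in BM mature and 100637 to 119806 in spleen mature basophils, so that the mature groups overlapped. Junb, a subunit of AP-1, rose from 2056 ± 78.2 CPM (SD, n = 3) in BaPs to 3356 ± 257 in pre-basophils and reached 9584 ± 460 in the mature BM group. The same step from pre-basophils to BM mature basophils passed the test for Fosb, the most abundant of the list (log2 fold change -1.12, adjusted p = 0.00260), and for Jun (-1.26, 8.83e-05), Egr1 (-1.21, 0.000264) and Ier2 (3314 ± 346 to 6613 ± 211 CPM, adjusted p = 0.000994). Their part in the levels of Il4, Il13 and Il6 was not tested.

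**Figure D5:**
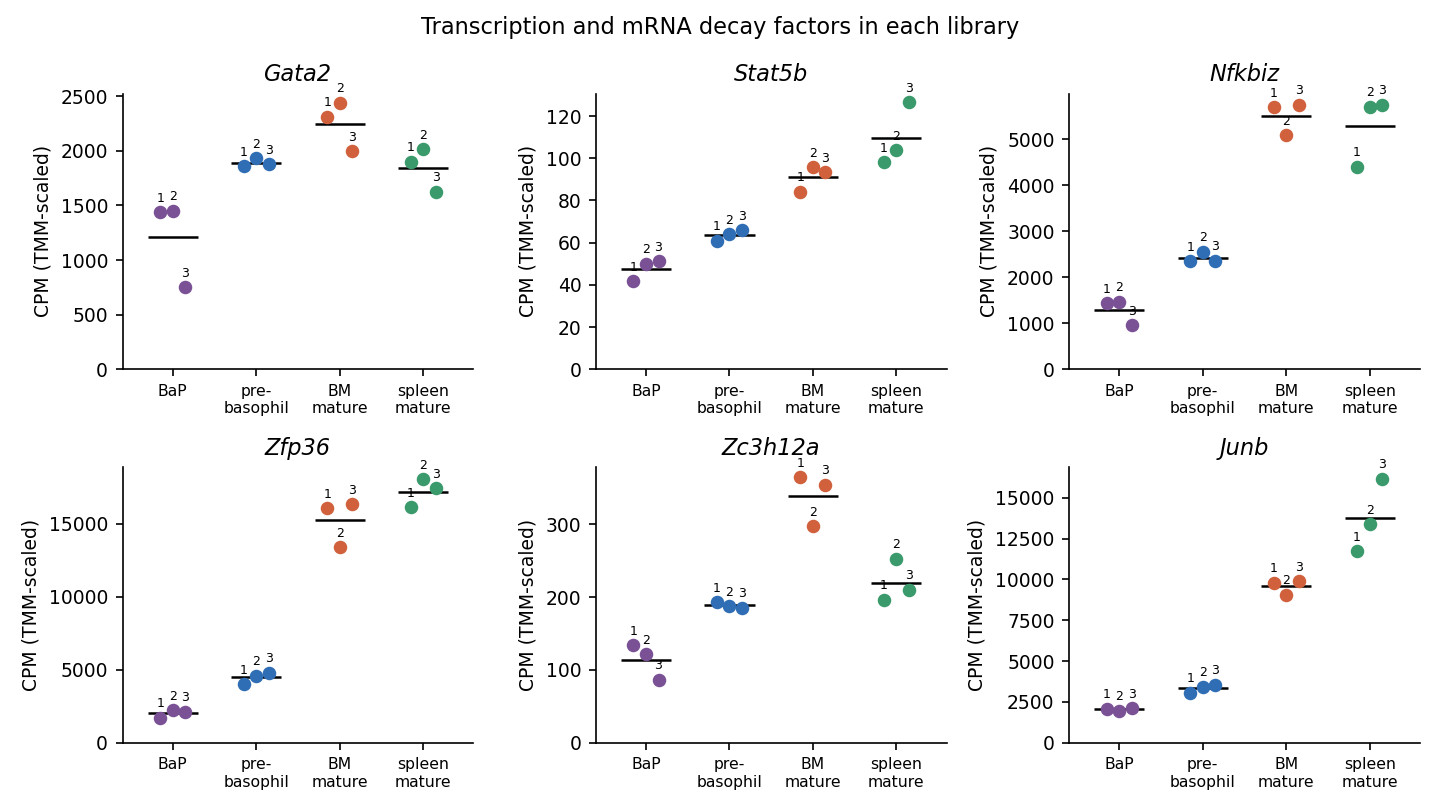
Levels of Gata2, Stat5b, Nfkbiz, Zfp36, Zc3h12a and Junb in TMM-scaled CPM (y axes, linear, from 0) in the 12 libraries by group (x axes). Points are libraries with their replicate number and bars are group means. Zfp36 and Nfkbiz are highest in both mature groups, whereas Zc3h12a is highest in BM mature basophils, at a mean of 339 CPM.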

How the data were processed

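Sorted cells were lysed, polyadenylated RNA was amplified as whole-transcriptome cDNA, and enzymatically fragmented libraries were sequenced. Per the labels and the study's methods, the authors trimmed reads with cutadapt 3.4, mapped them with Bowtie2 2.4.2 to reference RNA of GRCm38 and deposited raw counts per gene, with no normalization. The submitters' processing notes name a later mouse build than the methods do. These sources do not say whether strand was used or how reads matching several genes were counted, and they mention no molecular identifiers, so intervals and floors cover counting error only.

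Genes were filtered with filterByExpr, scaled by TMM and fitted in 1 quasi-likelihood model of edgeR 4.0.16 (R 4.3.3, limma 3.58.1) with a coefficient per group over all 12 libraries. This replaced the TCC package of the study, whose scheme was rebuilt in edgeR as an alternative. p-values were adjusted over the 15083 genes tested, with a threshold of 0.05, and the SE was the log2 fold change over the root of F. Alternatives were other scalings, filters, DESeq2 1.42.0, limma-voom, a replicate term and leaving out each library. Ratios of counts within a library were tested by exact permutation. Transcript lengths came from GENCODE M21 and promoters from RefSeq, both on GRCm38, and 97.2% of the genes tested had a length.

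The 3 genes and the gene lists were chosen with earlier results of these data known. Named from each list were the most abundant gene and the 4 genes with the smallest p over the 4 groups, and any gene of the locus, receptor and other cytokine lists. A further sequence window is not reported here.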

Additional observations from a re-analysis of the deposited data

How the results depend on the processing

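Each result of the count model was recomputed under 20 other settings, 1 of them (a minimum of 10 counts in total over the 12 libraries) chosen after seeing the data, and each ratio under 15. Over 23 results, 417 of 450 recomputed values kept their side of the threshold and 0 reversed. The fit with no filter gives p-values that cannot be read: with all 32227 genes kept, the prior degrees of freedom of the quasi-likelihood fit became infinite, against 5.83 as reported, so that each gene received the trend value (0.565 for Il6) in place of its own observed spread (2.78). It alone called Il13 between spleen and BM mature basophils (adjusted p = 0.0205) and between BaPs and spleen mature basophils (0.0260), and it also gave a call for Il6 from pre-basophils to BM mature basophils (0.0190). With the minimum of 10 counts the prior was finite (7.69) and these were 0.338, 0.258 and 0.284. Scaling by library size alone, which shifted the median over all genes tested (log2) to 0.22 for BaPs against pre-basophils, 0.22 for pre-basophils against BM mature, 0.13 for spleen against BM mature and 0.48 for BaPs against BM mature, gave a call for Il6 between pre-basophils and BM mature basophils (0.0306) but lost Il13 (0.0612) and Il6 (0.133) between BaPs and BM mature basophils. The scheme of the study's package lost Il4 between BaPs and pre-basophils (0.0624) and Il6 between BaPs and BM mature basophils (0.0558). On ranks, the Il13 to Il4 ratio gave p = 0.0502 in the exact permutation test. The cause was not tested for the scalings or the ranks.

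Leaving out 1 library at a time, the adjusted p (edgeR) ran from 0.00442 to 0.171 for Il4, from 0.0146 to 0.108 for Il13 and from 0.00438 to 0.0685 for Il6 between BaPs and pre-basophils, from 0.00821 to 0.0941 for Il13 and 0.00770 to 0.102 for Il6 between BaPs and BM mature basophils, and from 0.00732 to 0.150 for Il13 between pre-basophils and spleen mature basophils. The permutation p of the Il13 to Il4 ratio ran from 0.00357 to 0.0611. Il6 between spleen and BM mature basophils stayed under the threshold in every setting, at up to 0.0205.

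Replicate numbers are shared between groups in the labels. Deviations from group means correlated at 0.000366 to 0.262 between libraries of the same number and at -0.206 to 0.0759 between others. Averaged over the other groups, all 12 libraries correlated best with their own number, a hint from the data and not from the design. That average was weak for the spleen libraries, at 0.0116 to 0.0437. Some single pairs with the spleen went the other way. BaP replicate 3, for instance, gave 0.0123 with spleen mature replicate 2 and 0.00672 with spleen mature replicate 3. With the replicate block, 0 calls changed, and the exact permutation p of the ratios was 0.0243 for Il13 to Il4 and 0.00174 for Il6 to Il4. The latter is the smallest p possible when groups are permuted within replicate numbers.

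The number of genes called between BaPs and pre-basophils was 1069, against 1608 by library size alone, 2091 with no filter and 1830 without BaP replicate 3. It fell to 471, 390 and 382 when pre-basophil replicate 1, 2 or 3 was left out. Between spleen and BM mature basophils it was 1181, against 1796 with no filter, 2653 without BaP replicate 3, 245, 459 and 448 without BM mature replicate 1, 2 and 3, and 757, 544 and 241 without spleen mature replicate 1, 2 and 3. Without BaP replicate 3, an alternative chosen after seeing the data for the lists, the members lower in BaPs than in pre-basophils were 2 of the locus, 4 of the factors linked to Il4 and Il13 and 2 of those linked to Il6, each against 1. Il13, with 19 to 140 counts in a library, is the transcript whose precision is most limited by depth.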

Other observations

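Genes with patterns most like those of the 3 cytokines were looked up by Pearson's r of log2 CPM over the 12 libraries, among 8413 tested genes with a mean of at least 10 CPM. The libraries share their groups, so r is a description with no test. Closest to Il4 were Furin (r = 0.966), P2ry14 (0.965), Faah (0.964), Ctnna1 (0.962) and Hdc (0.960), the last of which encodes the enzyme that makes histamine. Closest to Il6 were Mapk6 (0.971), Platr15 (0.968), Gzmb (0.967), which encodes granzyme B, Rhoa (0.964) and Trib1 (0.964). The closest to Il13 were looser, with Adora2b at 0.885, Orai1, a calcium channel subunit, at 0.877, Necap2 at 0.877, Scyl2 at 0.869 and Ero1l at 0.856. Among the 3 themselves r was 0.639 for Il4 and Il13, 0.697 for Il6 and Il13 and 0.130 for Il4 and Il6.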
